A study of Mus musculus with 32 samples.

Results

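Fc receptors bind the constant part of antibodies, and 6 genes of this family were examined in microglia of a tau transgenic mouse: Fcgr1, Fcgr3 and Fcgr4, which encode activating receptors for IgG, Fcer1g, which encodes the signalling γ chain they share, Fcgr2b, the inhibitory IgG receptor, and Fcgrt, the heavy chain of the neonatal Fc receptor FcRn. They were chosen by name and found by Entrez number, and all 6 were among the 18588 genes of the deposited table. Microglia had been taken with CD11b magnetic beads from pooled forebrains of 8 to 10 female animals per library, and RNAseq of total RNA gave 1 log2 signal per gene and library. The rTg4510 animals carry human tau (P301L) under a tetracycline-responsive element together with a CaMKIIα-driven transactivator (tTA), so that the transgene is driven in forebrain neurons. The controls were WT littermates without either transgene, with the strain label 129/FVB F1, so the effect of tau and that of the transgenes themselves cannot be told apart. Groups of both genotypes were taken at ages of 2, 4, 6 and 8 months. Each genotype had 4 libraries at the ages of 2 and 6 months and 3 at the ages of 4 and 8 months, 28 in all. A further 4 libraries, 1 of each genotype at 4 and at 8 months, failed the QC of the study and enter only where they are named.

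In the classical scheme, an immune complex clusters activating Fcγ receptors, Src family kinases phosphorylate the ITAM motif of the γ chain, and the kinase Syk is recruited. FcγRIIb carries an ITIM motif instead, recruits the lipid phosphatase SHIP-1 and dampens the same signal, so that the balance of activating and inhibitory receptors sets the threshold of a phagocyte. Microglia use these receptors to take up antibody-coated material. FcRn works inside the cell, where it pairs with β2-microglobulin, binds IgG and albumin at acid pH and returns them to the surface.

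Of the 6 genes, Fcgr4 and Fcer1g were up-regulated in rTg4510 microglia at 4, 6 and 8 months, Fcgr1 was lower at those ages by a smaller amount, and Fcgr2b, Fcgr3 and Fcgrt differed little. A gene was called a DEG when its false discovery rate (FDR), the Benjamini-Hochberg adjusted p over all 18588 genes from an unmoderated linear model fitted with limma, was below 0.05 and its change exceeded 1.5 fold, which is 0.585 on the log2 scale. No member was a DEG at 2 months, when 1.58% of all genes were up-regulated DEGs and 0.403% were down-regulated ones. Fcgr4 alone passed an unadjusted p of 0.05 there, and limma's moderated test gave no member either. At 4, 6 and 8 months, 2 of the 6 members were up-regulated DEGs, against 9.47%, 11.3% and 10.5% of all genes. No member was a down-regulated DEG at these ages, against 4.33%, 8.54% and 5.37% of all genes. The median log2 fold change over the 6 members was 0.04, 0.07, 0.22 and 0.13 at the 4 ages, and over all genes it was 0.01, -0.04, -0.04 and -0.01. In bulk libraries, a change in the number of cells that use a gene and a change in RNA per cell cannot be told apart.

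**Figure D1:**
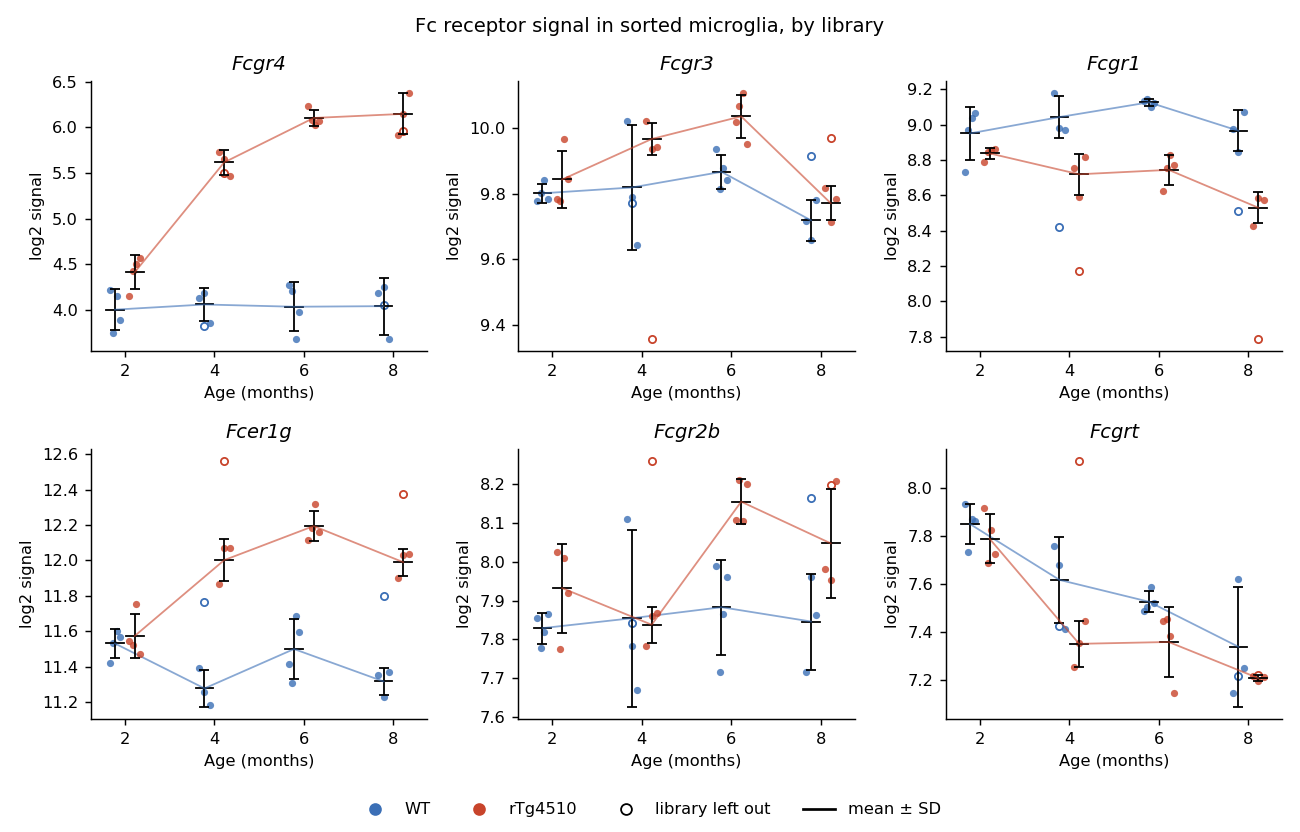
Log2 signal of the 6 Fc receptor genes (vertical axes, scaled per gene) against age in months in WT (blue) and rTg4510 (red) microglia, with 1 filled point per library, open points for the 4 libraries that failed QC, and black bars for the mean ± SD of the 3 or 4 libraries used. Fcgr4 stayed near 4.0 in WT and reached 6.15 in rTg4510, Fcer1g separated the genotypes from 4 months on, and Fcgrt was lower at 8 than at 2 months in both genotypes.

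The microglial identity of the libraries was checked with 10 marker genes, of which all were in the table and none was at the floor, taken as within 1.58 of the lowest log2 value of a library. Of these 10 markers, 0, 0, 1 and 1 were up-regulated DEGs and 0, 2, 3 and 2 down-regulated ones in order of age, with a median log2 fold change of -0.14, -0.25, -0.39 and -0.45. Tmem119 and Sall1, which mark resident microglia, were down-regulated DEGs at 4, 6 and 8 months, and Itgam was one at 6 months. C1qa, a complement gene, was an up-regulated DEG at 6 and 8 months. The log2 of the summed microglial marker signal ranged from 14.55 to 14.96 in rTg4510 libraries of those ages and from 14.81 to 15.25 in WT libraries. No marker of mast cells or basophils (0 of 5) was in the table.

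Fcgr4 encodes FcγRIV, an activating receptor for IgG2a and IgG2b that needs the γ chain to reach the cell surface, and it had the largest change of the 6 genes. The gene (Entrez 246256) lies at chr1:171018926-171029761 of GRCm38 between Fcgr2b and Fcgr3. At 2 months its log2 signals were 4.15, 4.43, 4.50 and 4.58 in rTg4510 libraries and 4.22, 3.75, 4.16 and 3.90 in WT libraries. The lowest rTg4510 library was below the highest 2 WT libraries, and the difference of 0.41 (SE 0.149) had an FDR of 0.132. At 4 months the signals were 5.74, 5.65 and 5.47 in rTg4510 and 4.13, 4.19 and 3.86 in WT. The groups were then separated by more than 1 log2 unit, and the change was 1.56 (SE 0.172, FDR = 5.63e-07), or 2.94 fold. At 6 months the rTg4510 libraries gave 6.24, 6.08, 6.02 and 6.07 and the WT libraries 4.27, 4.21, 3.69 and 3.98. That difference was 2.07 (SE 0.149, FDR = 5.94e-10), or 4.19 fold. At 8 months the values were 5.92, 6.15 and 6.37 against 4.19, 4.25 and 3.68, a difference of 2.11 (SE 0.172, FDR = 8.26e-09) and 4.30 fold. These fold changes start from low WT signals. The WT group means lay at percentiles 14.6, 15.9, 15.2 and 12.4 of all genes in order of age. Under the other ways of processing listed below, with no library left out singly, the difference was as low as 1.208, 1.649 and 1.685 at 4, 6 and 8 months. Every rTg4510 library was above every WT library at these 3 ages for Fcgr4 and for Fcer1g, as it was for 19.1%, 18.2% and 21.2% of all genes at 4, 6 and 8 months.

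The genotype difference of Fcgr4 grew between 2 and 4 months. The contrast of the genotype effects was 1.15 on the log2 scale (SE 0.227, FDR = 0.00305), with 3.77% of all genes called upward in that contrast and Fcgr4 and Fcer1g called among the 6. From 4 to 6 months the increment was 0.51 (95% interval 0.04 to 0.99, FDR = 0.574), and from 6 to 8 months it was 0.04 (-0.44 to 0.51). No member was called in either of those contrasts, against 0.156% and 0% of all genes. In the later contrast limma called 0 genes with or without moderation of the variances, and 841 genes, none of them a member, had an unadjusted p under 0.05. Over the whole span, in a contrast added after the data were seen, the effect at 8 months exceeded that at 2 months by 1.70 for Fcgr4 (SE 0.227, FDR = 4.71e-05) and by 0.63 for Fcer1g (SE 0.121, FDR = 0.00169), in a contrast in which 4.85% of all genes were called upward.

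Within rTg4510, the Fcgr4 signal rose 2.30 fold from 2 to 4 months (SE 0.161 on the log2 scale, FDR = 2.2e-05), and Fcgr4 was the only member called there as an up-regulated DEG, against 4.03% of all genes. The step from 4 to 6 months was 0.49 (FDR = 0.142) and that from 6 to 8 months was 0.04 (FDR = 0.929), and no member was a DEG in either step, against 0.818% and 0.00538% of all genes. From 2 to 8 months the rise was 1.73 (SE 0.161, FDR = 8.78e-08), again the only DEG among the 6, against 5.72%. Contrasts of 8 against 2 months within a genotype were not among the planned ones. Of the alternatives listed below, only moderated variances were applied to them. In WT microglia, the Fcgr4 group means stayed between 4.00 and 4.06 over the 4 ages. None of the 6 genes was a DEG in any WT step from 2 to 4, 4 to 6 or 6 to 8 months, and the share of all genes called was 0.0484%, 0.00538% and 0%. Between 1 and 3 members had an unadjusted p under 0.05 in each of these WT steps, none of them Fcgr4. In the order of the 8 group means, rTg4510 at 8 and 6 months led and overlapped each other. Then followed rTg4510 at 4 months and at 2 months, each below every library of the group before it. The 4 WT groups came last and overlapped, and rTg4510 at 2 months overlapped the first of them, WT at 4 months.

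Upstream sequence of the 2 genes that rose and of Fcgr1 is printed for reference, as the 250 bases before the RefSeq start in GRCm38.p6. Capitals mark matches, on either strand, to the core GAGGAA of the PU box bound by the myeloid factor PU.1 and to 2 other stretches: GAAANNGAA, a repeat bound by interferon regulatory factors, and TGANTCA, the AP-1 site. Of the 32851 promoter windows in the same table, 23.3%, 7.13% and 6.75% held these stretches in that order. The windows lie at chr1:171018676-171018925 on the plus strand for Fcgr4, chr1:171234350-171234599 on the minus strand for Fcer1g and chr3:96293970-96294219 on the minus strand for Fcgr1.
Fcgr4: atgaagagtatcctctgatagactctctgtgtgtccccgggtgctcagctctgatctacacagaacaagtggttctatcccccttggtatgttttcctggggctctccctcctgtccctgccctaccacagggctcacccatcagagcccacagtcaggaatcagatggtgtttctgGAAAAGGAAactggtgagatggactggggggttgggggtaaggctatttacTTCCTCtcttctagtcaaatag
Fcer1g: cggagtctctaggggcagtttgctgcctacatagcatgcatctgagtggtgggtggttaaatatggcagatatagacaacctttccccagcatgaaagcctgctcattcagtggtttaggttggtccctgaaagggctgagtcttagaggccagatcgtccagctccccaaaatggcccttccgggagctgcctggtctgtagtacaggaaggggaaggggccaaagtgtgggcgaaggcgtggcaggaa
Fcgr1: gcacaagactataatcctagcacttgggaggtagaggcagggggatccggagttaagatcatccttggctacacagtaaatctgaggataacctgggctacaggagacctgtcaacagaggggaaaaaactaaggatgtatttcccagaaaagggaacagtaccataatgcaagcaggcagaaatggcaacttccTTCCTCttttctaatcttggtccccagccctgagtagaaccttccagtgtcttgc
The Fcgr4 window held GAAAAGGAA from 73 bases and a PU core from 22 bases before the start. The Fcgr1 window held a PU core from 55 bases before the start. In the Fcer1g window none of the 3 stretches was found. In the windows of Fcgr2b and Fcgrt none was found either, and both Fcgr3 windows held a PU core. A match describes letters in a window and no binding was measured.

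Fcer1g encodes the FcRγ chain, the ITAM adaptor through which FcγRI, FcγRIII and FcγRIV signal, and it was the only other DEG among the 6. The gene (Entrez 14127) lies at chr1:171229572-171234349. At 2 months the log2 signals were 11.55, 11.52, 11.76 and 11.47 in rTg4510 and 11.42, 11.54, 11.61 and 11.57 in WT. These groups overlapped, with a difference of 0.04 (SE 0.079, FDR = 0.878). At 4 months the rTg4510 libraries gave 11.87, 12.07 and 12.07 and the WT libraries 11.39, 11.26 and 11.19. The difference was 0.72 (SE 0.0912, FDR = 3.27e-06), or 1.65 fold. At 6 months, 12.12, 12.18, 12.32 and 12.16 stood against 11.42, 11.31, 11.68 and 11.60, a change of 0.69 (SE 0.079, FDR = 4.48e-07) and 1.62 fold. At 8 months it was 11.90, 12.03 and 12.04 against 11.36, 11.23 and 11.37, a change of 0.67 (SE 0.0912, FDR = 6.79e-06) and 1.59 fold. All 3 estimates were just above the 1.5-fold limit, and each 95% interval reached below 0.585.

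The Fcer1g call depended on how libraries were scaled. With quantile normalization in place of the deposited median normalization, its log2 fold changes were -0.16, 0.31, 0.17 and 0.21 at 2, 4, 6 and 8 months (FDR = 0.209, 0.00495, 0.0576 and 0.0442), and it was a DEG at none of these ages. Fcer1g was among the 2% of genes with the highest mean signal, a set chosen after the data were seen. As deposited, the median log2 fold change of those 372 genes was 0.21, 0.25, 0.41 and 0.33 at the 4 ages, and after quantile normalization it was 0.01, -0.12, -0.09 and -0.13. The Fcgr4 change kept its call at 4, 6 and 8 months under quantile normalization.

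The genotype effect on Fcer1g exceeded that at 2 months by 0.68 at 4 months (SE 0.121, FDR = 0.00118). Its parts were a rise in rTg4510 of 0.43 (SE 0.0853, FDR = 0.00148) and a WT change of -0.25 (FDR = 0.282). After quantile normalization the contrast of the genotype effects was 0.46 (FDR = 0.00721), no longer a DEG, and the rise in rTg4510 was 0.21 (FDR = 0.0586). With only the groups compared in the fit, the FDR of that rise was 0.0683. Of the 6 genes, Fcgr4 and Fcer1g were higher at 4 than at 2 months in rTg4510 with an FDR below 0.05 without regard to size, against 9.73% of all genes. The same 2 members were higher at 8 than at 2 months, against 10.6%, with an Fcer1g rise of 0.42 (SE 0.0853, FDR = 0.00111). From 4 to 6 and from 6 to 8 months the Fcer1g genotype effect moved by -0.03 (95% interval -0.28 to 0.22) and -0.02 (-0.27 to 0.23). Across the 8 groups, rTg4510 at 6 months was highest, rTg4510 at 4 and 8 months overlapped next, and the remaining 5 groups, both groups of 2 months included, formed an overlapping series.

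**Figure D2:**
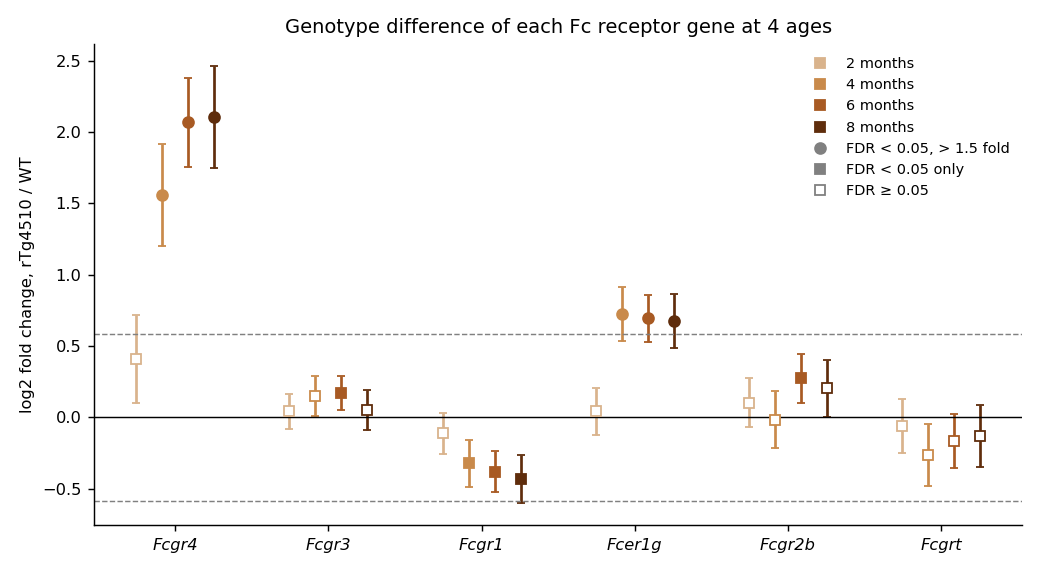
Log2 fold change of rTg4510 over WT (vertical axis) for each Fc receptor gene at 2, 4, 6 and 8 months (light to dark), with 95% intervals from the linear model. Circles mark DEGs, filled squares an FDR below 0.05 without a 1.5-fold change, open squares the rest, and dashed lines 1.5 fold. Fcgr4 reached 2.11 at 8 months, Fcer1g lay just above the upper dashed line from 4 months on, and Fcgr1 reached -0.44.

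Fcgr1 encodes FcγRI, the high-affinity receptor that binds monomeric IgG and also signals through the γ chain, and it went the opposite way. The gene (Entrez 14129) lies at chr3:96282909-96293969. At 2 months the rTg4510 signals of 8.79, 8.84, 8.86 and 8.86 lay within the WT values of 8.73, 8.97, 9.04 and 9.06. From 4 months on, the 2 genotypes no longer overlapped. The libraries gave 8.75, 8.59 and 8.81 against 8.98, 8.97 and 9.18 at 4 months, a difference of -0.32 (SE 0.08, FDR = 0.00471), or 1.25 fold lower. At 6 months they gave 8.63, 8.75, 8.83 and 8.77 against 9.14, 9.15, 9.10 and 9.12, a difference of -0.38 (SE 0.0693, FDR = 0.000171) and 1.30 fold lower. At 8 months they gave 8.43, 8.59 and 8.58 against 8.98, 8.84 and 9.07, a difference of -0.44 (SE 0.08, FDR = 0.000261) and 1.35 fold lower. No change passed 1.5 fold. Fcgr1 was the only member lower with an FDR below 0.05 at each of these ages, against 9.1%, 14.9% and 9.78% of all genes. Every rTg4510 library was below every WT library for 17.5%, 14.6% and 15.5% of all genes at 4, 6 and 8 months.

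Within rTg4510, Fcgr1 was lower at 8 than at 2 months by 0.31 (SE 0.0748, FDR = 0.00482). Fcgr1 and Fcgrt were the 2 members lower over that span with an FDR below 0.05, against 11% of all genes. WT microglia showed 0.02 (FDR = 0.941) over the same span, and the contrast of the genotype effects at 8 and 2 months was -0.32 (95% interval -0.54 to -0.10, FDR = 0.0606). The Fcgr1 difference lay beside a lower summed signal of the microglial markers in rTg4510, with Tmem119 at -0.74, -0.78 and -0.72 and Itgam, which encodes CD11b itself, at -0.38, -0.62 and -0.58 on the log2 scale at 4, 6 and 8 months. Other markers of that list went the opposite way, with C1qa at 0.69 and 0.73 and Aif1 at 0.36 and 0.40 at 6 and 8 months. With an FDR below 0.05, 1, 3 and 2 of the 10 markers were higher and 5, 6 and 6 were lower at 4, 6 and 8 months. The part of these markers in the Fcgr1 difference was not tested. Over all 32 libraries the FDR of Fcgr1 was 0.192 at 4 months and 0.108 at 6 months, and with only the groups compared in the fit it was 0.124 at 4 months.

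Fcgr3 encodes FcγRIII, a low-affinity activating receptor for immune complexes. The gene (Entrez 14131) lies at chr1:171051169-171065915. Its log2 signals spanned 9.64 to 10.11 over all 28 libraries, and its genotype differences were 0.04, 0.15, 0.17 and 0.05 at the 4 ages. At 6 months the rTg4510 values of 10.02, 10.07, 10.11 and 9.95 were all above the WT values of 9.93, 9.81, 9.88 and 9.84 (difference 0.17, SE 0.0586, FDR = 0.0298). That was the only age with an FDR below 0.05, and the interval of 0.05 to 0.29 lay below 1.5 fold. The 6-month FDR was 0.0686 and 0.0918 without rTg4510 replicate 2 or 3, and 0.0826 and 0.0656 without WT replicate 2 or 4. At 4 months it was 0.128, and 0.0033 without WT replicate 1. At 2, 4 and 8 months the intervals ran from -0.08 to 0.16, 0.01 to 0.29 and -0.09 to 0.19. The sign at all 4 ages turned under quantile normalization, to -0.07, -0.10, -0.08 and -0.19. At 6 months, 4 members (Fcgr2b, Fcgr3, Fcgr4 and Fcer1g) were higher with an FDR below 0.05, against 19.1% of all genes. The same 4 had every rTg4510 library above every WT library, against 18.2% of all genes.

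Fcgr2b encodes FcγRIIb, the inhibitory receptor with an ITIM. The gene (Entrez 14130) lies at chr1:170960558-170976071. Its genotype differences were 0.10, -0.02, 0.27 and 0.20 on the log2 scale at 2, 4, 6 and 8 months (SE 0.0832, 0.0961, 0.0832 and 0.0961; FDR = 0.627, 0.93, 0.015 and 0.139). At 6 months, 8.11, 8.21, 8.10 and 8.20 in rTg4510 were all above 7.99, 7.72, 7.87 and 7.96 in WT. At 4 months, 7.78, 7.86 and 7.87 lay within the WT span of 8.11, 7.78 and 7.67. The 95% interval at 8 months was 0.00 to 0.40, so that a 1.5-fold rise was outside it at every age. The 6-month FDR was 0.064 without WT replicate 2, 0.0638 with all 32 libraries and 0.126 after quantile normalization, where the difference was 0.17.

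Fcgr2b and Fcgr3 share sequence, so their values are not fully separate. Between their longest coding transcripts of GENCODE vM21, the longest identical run was 129 bases, inside the coding part of both, and it is shown because reads of 100 bases from it fit either gene.
Fcgr2b and Fcgr3: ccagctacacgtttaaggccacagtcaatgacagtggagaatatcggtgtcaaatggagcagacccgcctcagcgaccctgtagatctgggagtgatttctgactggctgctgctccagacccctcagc
Of the 100-base windows of Fcgr3, 3.53% occurred in another gene's transcripts, in all cases Fcgr2b, and of those of Fcgr2b 3.54% occurred elsewhere. For Fcgr4, Fcer1g, Fcgr1 and Fcgrt no window was shared. How reads matching 2 genes were counted is not given in the sources used here, and the small differences of Fcgr2b and Fcgr3 are uncertain to that degree.

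The pairing of activating with inhibitory receptor was followed within each library as the log2 signal of one gene minus that of the other, where the change between groups, and not the size, can be read. Fcgr4 minus Fcgr2b was -3.82 ± 0.203 in WT and -3.52 ± 0.25 in rTg4510 at 2 months (SD, n = 4 each). At 6 months it was -3.85 ± 0.295 and -2.05 ± 0.122 (n = 4 each), and at 8 months -3.80 ± 0.338 and -1.90 ± 0.139 (n = 3 each). Fcgr1 minus Fcgr2b went down, from 0.91 ± 0.130 at 2 months to 0.48 ± 0.136 at 8 months in rTg4510, and was 1.12 ± 0.164 and 1.12 ± 0.206 in WT at those ages. Fcgr3 minus Fcgr2b was 1.72 ± 0.133 in rTg4510 and 1.87 ± 0.157 in WT at 8 months. Relative to Fcgr2b, Fcgr4 was above every WT library and Fcgr1 below every WT library of the same age at 4, 6 and 8 months. Fcgr3 was above every WT library at 4 months, at 2.13 ± 0.0944 against 1.96 ± 0.0479 (n = 3 each), and overlapped WT at 6 and 8 months. The share of other gene pairs separated in this way was not computed. Single genes were separated upward in 19.1%, 18.2% and 21.2% of cases at 4, 6 and 8 months, and downward in 17.5%, 14.6% and 15.5%.

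Fcgrt encodes the α chain of FcRn, and the change in its signal went with age more than with genotype. The gene (Entrez 14132) lies at chr7:45092993-45103822. WT libraries had 7.94, 7.74, 7.87 and 7.86 at 2 months and 7.15, 7.62 and 7.25 at 8 months, and rTg4510 libraries had 7.92, 7.69, 7.83 and 7.73 at 2 months and 7.22, 7.19 and 7.21 at 8 months. No 8-month library reached the lowest 2-month library of its genotype, and the share of all genes separated between ages in this way was not computed. From 2 to 8 months the change was -0.51 in WT (SE 0.0981, FDR = 0.00643) and -0.58 in rTg4510 (SE 0.0981, FDR = 0.000168), both under the DEG limit of 1.5 fold. This span was not among the planned contrasts, and of the alternatives only moderated variances were applied to it. Fcgrt was the only member lower in WT over that span with an FDR below 0.05, against 3.39% of all genes. The age change differed between the genotypes by -0.07 (95% interval -0.36 to 0.22).

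The rTg4510 libraries of 4 months had Fcgrt signals of 7.26, 7.35 and 7.44, and the step from 2 months was -0.44 (SE 0.0981, FDR = 0.00381), against 5.48% of all genes lower by that rule and with Fcgrt the only member. With all 32 libraries that step was -0.25 (FDR = 0.234). In WT the step from 2 to 4 months was -0.23 (FDR = 0.415). The genotype difference was -0.06, -0.27, -0.17 and -0.13 at the 4 ages, and none had an FDR below 0.05 (0.835, 0.0748, 0.166 and 0.405). Without WT replicate 4 of 4 months or WT replicate 2 of 8 months, the 4-month FDR was 0.0201 and 0.0293, and after quantile normalization it was 0.034. At 6 months, though, the rTg4510 values of 7.45, 7.46, 7.38 and 7.15 were all below the WT values of 7.49, 7.50, 7.59 and 7.52. That separation held for Fcgr1 too, and for 14.6% of all genes. FcRn is also a gene of endothelial cells, and of 6 endothelial markers 0, 1, 4 and 1 were down-regulated DEGs and 0, 1, 1 and 1 up-regulated ones at the 4 ages. Their log2 summed signal ranged from 7.34 to 8.75 at 2 months and from 7.62 to 8.22 at 8 months in rTg4510, and from 7.72 to 8.82 and 8.06 to 8.90 in WT. The part of endothelial RNA in the Fcgrt values was not tested.

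Neutrophils and monocytes use Fcgr4 too, and CD11b beads also take these cells. Of 10 neutrophil markers, 7 were down-regulated DEGs at 6 and at 8 months and none was up-regulated at any age, with S100a8 at -2.15 at 6 months and -1.54 at 8 months on the log2 scale. The log2 summed neutrophil signal was 10.13 to 10.55 in rTg4510 and 10.91 to 11.10 in WT at 8 months. Of 6 monocyte markers, 1 was a down-regulated DEG at 4 months, 4 were at 6 months with 1 up-regulated, and none was either at 8 months. At 6 and 8 months every rTg4510 library was below every WT library in summed neutrophil signal, as for 14.6% and 15.5% of single genes. At 4 months the 2 genotypes overlapped in it. With an FDR below 0.05, 1 of the 10 neutrophil markers was higher at each of 4, 6 and 8 months, and 0, 7 and 7 were lower. The part of neutrophils and monocytes in the Fcgr4 values was not tested. Of 5 B cell and plasma cell markers, 1 was an up-regulated DEG at each age, Cd22, and 2 were down-regulated at 4 months, with list medians of -0.07, -0.77, -0.34 and -0.39. Of 5 NK and T cell markers, 1 was an up-regulated DEG at each age, Klrb1c, and 3 were down-regulated at 6 months, with list medians of -0.20, -0.74, -1.40 and -0.57.

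**Figure D3:**
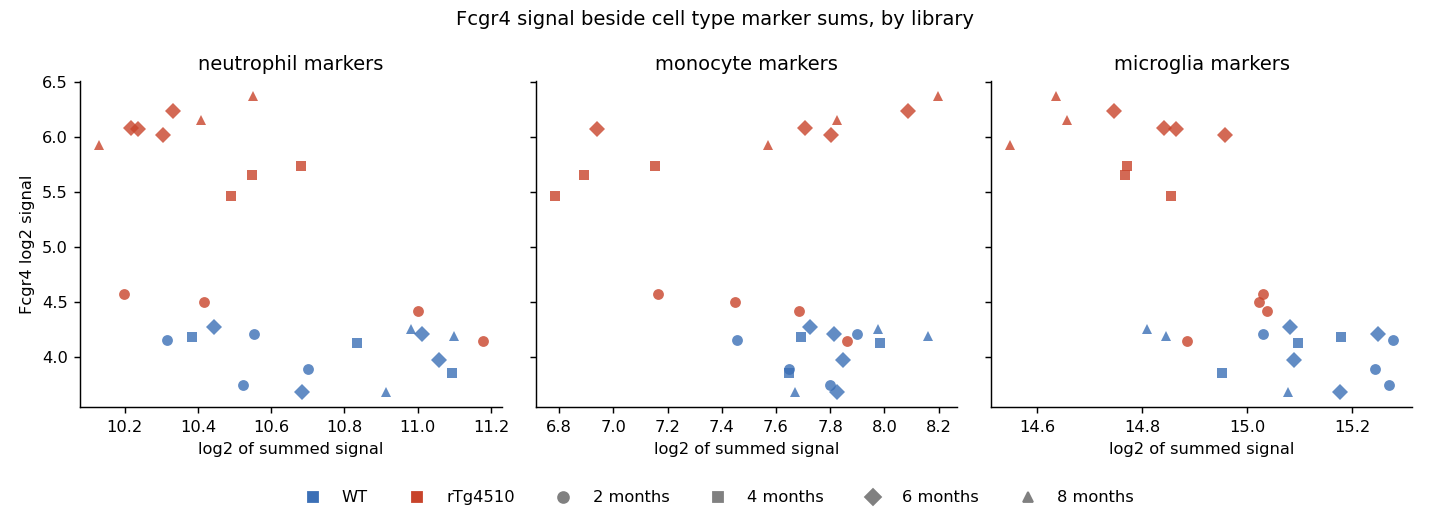
Fcgr4 log2 signal (vertical axis) against the log2 of the summed signal of neutrophil, monocyte and microglia markers (horizontal axes) in the 28 libraries, blue for WT and red for rTg4510, with a symbol per age. The rTg4510 libraries of 4, 6 and 8 months lie above 5.4 on the vertical axis, and those of 6 and 8 months lie at 10.55 or lower in neutrophil signal.

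The genes around the receptors were counted list by list, to be read against the shares of all genes called, which were 1.58%, 9.47%, 11.3% and 10.5% upward and 0.403%, 4.33%, 8.54% and 5.37% downward at the 4 ages. Of 30 genes of the ITAM pathway, all in the table, the number of up-regulated DEGs was 1, 5, 4 and 5 in order of age, and 1 was down-regulated, at 6 months. Their median log2 fold change was 0.12, -0.06, -0.01 and 0.03. Fgr, a Src family kinase of myeloid cells, was the only one already a DEG at 2 months. Its log2 fold changes were 1.14, 2.55, 2.33 and 2.20 (SE 0.172 to 0.199). Tyrobp, the ITAM adaptor DAP12 that serves TREM2 and other receptors in the way the γ chain serves Fc receptors, changed by 0.37, 1.35, 1.31 and 1.17 and was a DEG from 4 months on. Lat2, a transmembrane adaptor, gave 0.45, 0.88, 0.77 and 0.63, and the kinase Fyn gave 0.31, 0.70, 0.95 and 0.90. Syk, the kinase that docks on phosphorylated ITAMs, gave 0.03, -0.35, -0.28 and -0.23, with an FDR of 0.0228 at 4 months and 0.0251 at 6 months and no 1.5-fold change.

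Of 15 genes of the inhibitory arm, 0, 1, 2 and 2 were up-regulated DEGs and 0, 1, 1 and 0 down-regulated ones at the 4 ages, and the median log2 fold change was 0.02, -0.13, 0.05 and 0.20. Lilrb4a, an inhibitory receptor with ITIMs, gave 0.21, 1.74, 1.88 and 1.85. Ptpn22, a phosphatase that acts on Src and Syk family kinases, passed at 6 and 8 months with 0.67 and 0.65. Dok3, an adaptor that restrains these signals, was down-regulated by 0.93 and 0.90 at 4 and 6 months on the log2 scale, with an FDR of 0.0452 and 0.0184. Inpp5d, which encodes the SHIP-1 recruited by FcγRIIb, stayed within -0.13 and 0.02 at all ages. Ptpn6, which encodes the phosphatase SHP-1, was higher by 0.22, 0.27, 0.40 and 0.47 with an FDR below 0.05 at each age and no 1.5-fold change.

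**Figure D4:**
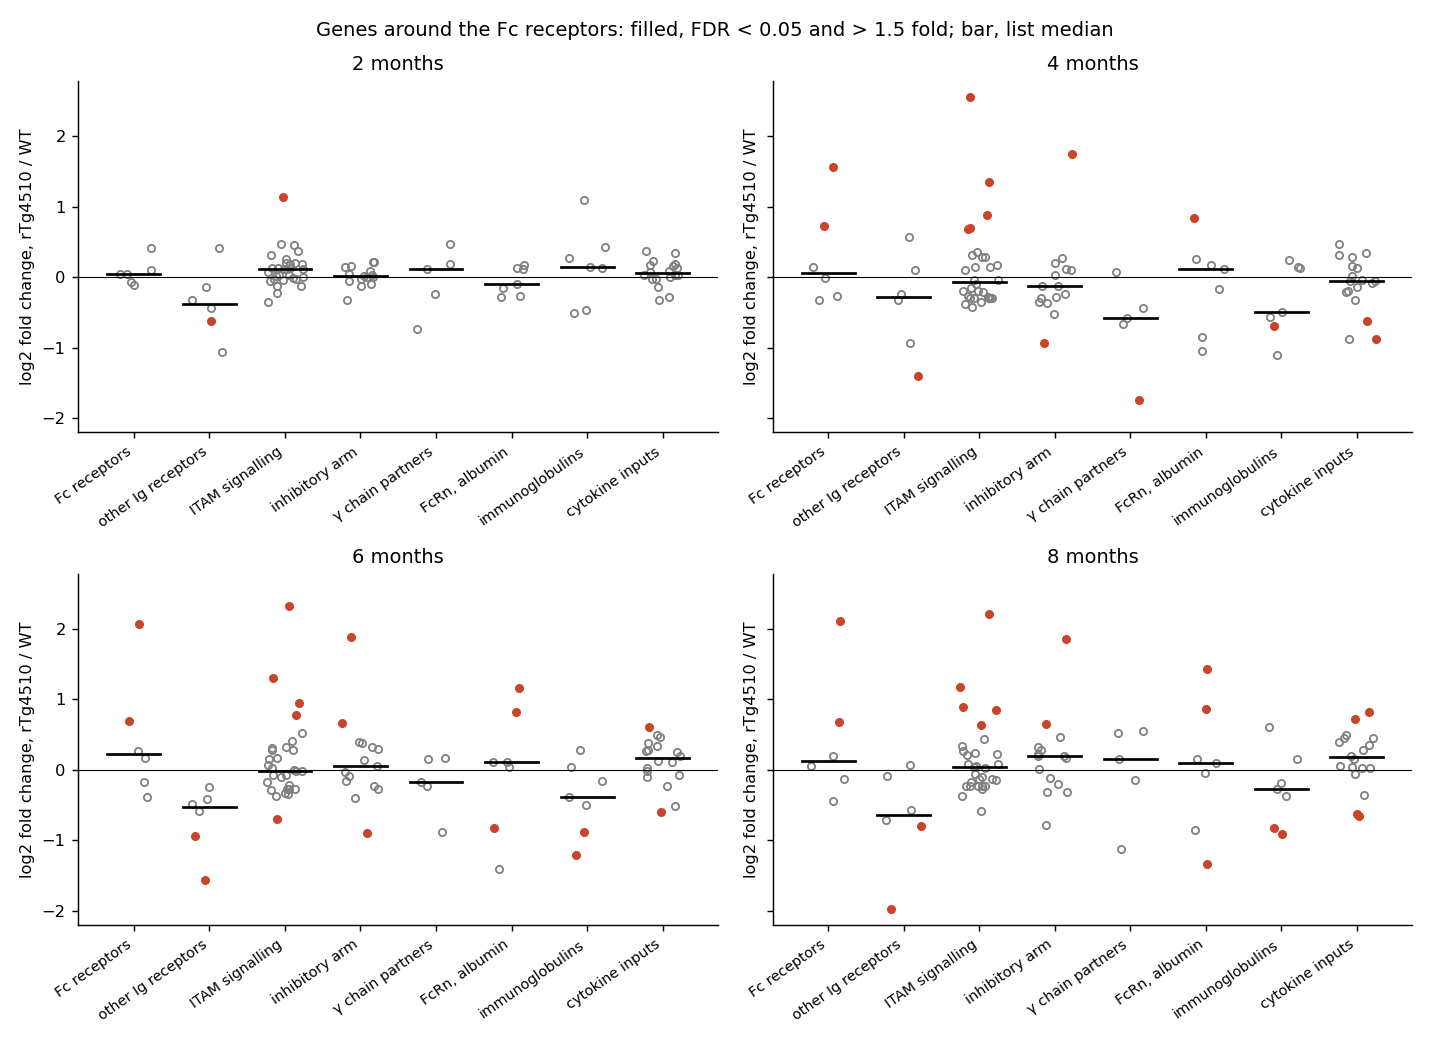
Log2 fold change of rTg4510 over WT (vertical axes) at 4 ages for the Fc receptors and 7 lists of genes around them, with 1 circle per gene, filled for DEGs, and a bar at the list median. The medians of the ITAM and cytokine lists lie between -0.06 and 0.18, that of the other Ig receptors lies below 0 at each age, and Fgr, Lilrb4a and Fcgr4 stand out upward from 4 months on.

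B2m, the β2-microglobulin that pairs with FcRn and with MHC class I, was up-regulated at 4, 6 and 8 months by 0.83, 0.82 and 0.86 on the log2 scale (SE 0.0686 to 0.0792) as deposited, while Fcgrt was not. Its group means of 13.43 to 14.47 place it among the 2% of genes with the highest mean signal, all at 11.05 or more. The median change of that set moved with quantile normalization, as given for Fcer1g. The B2m changes under that scaling are not given here. Of the 7 genes of FcRn partners and albumin handling, 0, 1, 2 and 2 were up-regulated DEGs and 0, 0, 1 and 1 down-regulated ones, with a median of -0.09, 0.12, 0.10 and 0.10. Rab11fip1, an effector of recycling endosomes, gave 1.16 and 1.43 at 6 and 8 months. Alb, the albumin gene, gave -0.83 and -1.34 at those ages from low signals of 3.48 ± 0.53 and 3.92 ± 0.35 in WT. Of 7 other genes whose products use the γ chain, 5 were in the table, and only Ncr1 at 4 months was a DEG, with -1.74. The list medians were 0.12, -0.58, -0.17 and 0.16.

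Fcrls, an Fc receptor-like gene characteristic of microglia, had log2 fold changes of -0.62, -0.32, -0.58 and -0.79 with an FDR below 0.05 at every age, and was a DEG at 2 and 8 months. It was the only gene named here that was down-regulated as a DEG at 2 months. Fcrl1, otherwise a B cell gene, gave -1.39, -1.56 and -1.97 from 4 months on. These came from low signals, with group means of 2.91, 2.89 and 2.55 in rTg4510 and 4.30, 4.45 and 4.52 in WT. The rTg4510 libraries of 8 months, at 2.44 to 2.70, were at the floor as defined above. Of 13 genes in that list of other immunoglobulin receptors, 6 were in the table, of which 1, 1, 2 and 2 were down-regulated and none up-regulated, with a median of -0.38, -0.28, -0.53 and -0.64.

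The ligand side was read from immunoglobulin genes, of which 7 of 13 were in the table. None was up-regulated, and 0, 1, 2 and 2 were down-regulated at the 4 ages, with a median of 0.14, -0.50, -0.39 and -0.27. Ighg2b gave -0.70, -0.88 and -0.82 at 4, 6 and 8 months, with group means of 14.32 to 14.87 in rTg4510 and 15.14 to 15.34 in WT. Ighd gave -1.21 and -0.91 at 6 and 8 months. The summed signal of 5 B cell and plasma cell markers had a log2 of 6.06 to 7.65 in the same libraries, so what the Ighg2b and Ighd rows count in these microglia was not tested. Among 18 of 20 genes for cytokine inputs that act on Fc receptor genes, 0, 0, 1 and 2 were up-regulated DEGs and 0, 2, 1 and 2 down-regulated ones, and the median was 0.05, -0.05, 0.16 and 0.18. Ifngr1, a chain of the interferon-γ receptor, gave -0.28, -0.63, -0.51 and -0.62, and C5ar2, a receptor of the complement fragment C5a, gave -0.33, -0.88, -0.60 and -0.66.

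Genes next to each other on the chromosome differed in their changes. Fcgr4 lies 42854 bp from Fcgr2b and 21407 bp from Fcgr3, and it rose by 2.07 at 6 months while its neighbours differed by 0.27 and 0.17. Next to Fcgr1, the histone genes H3c13 and H2bc18 were down-regulated DEGs at 4, 6 and 8 months, with -0.81, -0.71 and -0.90 for the former.

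Over the 28 libraries, the 3 genes with the highest Pearson correlation to Fcgr4 were Trpm6 (0.98), Rap2b (0.98) and Apoe (0.98), and those nearest to Fcer1g were C1qb (0.97), Vkorc1 (0.97) and Edf1 (0.97). For Fcgr1 they were Gal3st4 (0.94), Dock8 (0.93) and Slco2b1 (0.93). The nearest genes to Fcgrt were Mbnl1 (0.85), Ckb (0.85) and H2ac15 (0.84), those to Fcgr3 were Eif1b (0.83), Tcn2 (0.81) and Mrpl18 (0.77), and those to Fcgr2b were Nfxl1 (0.78), 2610507B11Rik (0.78) and Selenop (0.77). Between members, Fcgr4 and Fcer1g gave 0.87 over all libraries and 0.87 over the 14 rTg4510 libraries, but -0.40 over the 14 WT libraries. Fcgr4 and Fcgrt gave -0.90 within rTg4510 and 0.15 within WT. Libraries share group, age and genotype, so these values describe the 28 libraries and carry no test.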

How the data were processed

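Microglial RNA was sequenced as paired reads of 100 bases, and the authors deposited 1 log2 value per gene and library from an in-house rollup of exon counts: exons with under 10 counts in more than 80% of samples were dropped, a robust linear model combined the exons of a gene, and libraries were median normalised (median 5.63 in each). The build was GRCm38 per the submitters' processing notes, and the aligner is not given in the sources used here. The paper states an approximate number of reads per sample. The depth of each library is not part of the values and is unknown here, so no counting interval is given.

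From these values, a linear model with 8 group means and unmoderated variances (20 residual degrees of freedom) was fitted with limma 3.58.1 in R 4.3.3 over 28 libraries and 18588 genes, of which 95.9% of Entrez numbers matched a symbol. FDR is the Benjamini-Hochberg value over all genes of a contrast. Each library is a separate pool of animals. Samples were grouped by the labelled genotype and age.

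Named beside the 6 members were, from each list, genes that were DEGs at 2 or more ages (at most 4, by mean change), Syk, Tyrobp, Inpp5d, Ptpn6, B2m and Fcrls, the 3 most correlated genes per member, and chromosomal neighbours. Ncr1 and single cell type markers were named after their values were seen. The members and lists were chosen with earlier results of these data known. Alternatives were all 32 libraries, only the groups compared, moderated variances, quantile normalization, a pseudocount of 8, a filter at the 25th percentile of mean signal, a replicate block and leaving out each library. For the contrasts of 8 against 2 months, which were not planned, only moderated variances were run. The fitting was tested on simulated data. Replicate numbers are shared between the genotypes, and deviations of same-numbered libraries correlated by 0.131 to 0.153 at 6 months and 0.15 to 0.291 at 8 months, over 0.1 in every pair, but not in every pair at 2 months (0.0649 to 0.167) or 4 months (-0.0999 to 0.124). Results for some neighbouring genes, markers and motifs are not reported here. Sequences are from RefSeq GRCm38.p6 and GENCODE vM21.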

Additional observations from a re-analysis of the deposited data

Results flagged for a closer look

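The genotype effect differed between ages for Fcgr4 and Fcer1g by the interaction contrasts of limma. For Fcgr4 it was larger at 4 than at 2 months by 1.15 and larger at 8 than at 2 months by 1.70, and for Fcer1g by 0.68 and 0.63, all on the log2 scale. The 8 against 2 month contrasts were added after the data were seen.

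The rTg4510 libraries that failed QC were above every WT library used at the same age in some members. The 4-month library had log2 signals of 8.26 for Fcgr2b, 5.51 for Fcgr4, 12.56 for Fcer1g and 8.11 for Fcgrt, and the 8-month library had 8.20 for Fcgr2b, 9.97 for Fcgr3, 5.97 for Fcgr4 and 12.37 for Fcer1g. At 4 and 8 months, the WT libraries that failed QC had 7.84 and 8.16 for Fcgr2b and 9.77 and 9.91 for Fcgr3. They had 3.82 and 4.06 for Fcgr4, and 11.77 and 11.80 for Fcer1g. The 8-month WT library was itself above every WT library used at that age in Fcgr2b, Fcgr3 and Fcer1g, and the 4-month one in Fcer1g. For Fcgr1, the failed libraries had 8.17 and 7.79 in rTg4510 and 8.42 and 8.51 in WT, each below every library used of its group. The part of library quality in these values was not tested.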

How the results depend on the processing

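Fcgr4 was called at 4, 6 and 8 months under every alternative run. The number of Fc receptor DEGs was 1 at 4 months and 1 at 6 months after quantile normalization, which also left 1 genotype effect that differed between 2 and 4 months, gave 3 calls over the 4 ages for FcRn partners and 8 for immunoglobulin genes, and turned Fcgr3 to -0.0684, -0.102, -0.0767 and -0.188 at the 4 ages and Fcer1g to -0.157 at 2 months. Fcgr1 then passed the DEG limit at 8 months (-0.60). Calls for the inhibitory arm, 7 over the 4 ages, were 3 with only the groups compared and 4 with a pseudocount of 8. Other immunoglobulin receptors had 3 calls above the 25th percentile. The 1 call of the γ chain partners was 0 with all 32 libraries, with only the groups compared, above that percentile and with the replicate block, and 0 to 1 with 1 library left out (0 without rTg4510 replicate 2 or 4 or WT replicate 4 of 4 months). With the replicate block, Fc receptor DEGs numbered 2, 2 and 2 at 4, 6 and 8 months, and no other count crossed 1.5 times. No block could be fitted for age steps within a genotype, where numbers pair nothing. Fcgr2b at 4 months was 0.0918 with all 32 libraries. With 1 library left out, Fcer1g at 2 months ranged from -0.0185 to 0.0766, Fcgr2b at 4 months from -0.109 to 0.111 and Fcgrt at 8 months from -0.227 to 0.0113. The FDR of Fcgr3 at 6 months was 0.267 with all 32 libraries. The causes were not tested. The read depth of each library is unknown. That limits what can be said of low signals such as those of Alb, of Fcgr4 in WT and of Fcrl1 in rTg4510.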
